A study of Homo sapiens with 16 samples.

Results

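ANKRD52 encodes a regulatory scaffold subunit of protein phosphatase 6, built of ankyrin repeats, and its mRNA carried 19 of the 4768 Ago2 peaks in the table. The members are all peaks annotated to ANKRD52, and the gene was chosen by its number of peaks and by their low log ratios, so both are given here as descriptions with no test. All 19 peaks have distinct values and lie on the minus strand of chromosome 12 (hg19), in the single transcript NM_173595. The annotation puts 17 of them in the 3′ UTR and 2 in coding sequence (CDS), and none in the 5′ UTR.

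Argonaute 2 (Ago2) is loaded with a microRNA and pairs through the microRNA's seed with matching sites, mostly in 3′ UTRs. Target engagement lets the kinase CSNK1A1 phosphorylate a cluster of serines in Ago2, and the PPP6C phosphatase with its ANKRD52 subunit removes these phosphates, so that Ago2 can bind targets again. The peaks described here thus place Ago2 on the mRNA of a protein that acts on Ago2.

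Cells of the 293S line, an established line of human embryonic kidney origin, were either not treated or exposed to hippuristanol at 1 µM for 30 min. Hippuristanol blocks eIF4A, the helicase that opens the 5′ end of mRNAs for translation. The labels give 2 replicates per treatment of CLIP with each of 3 antibodies to Ago2, from Abnova, Santa Cruz and Sigma, and 2 of RNA-seq. The labels do not say whether replicates are separate cultures, or whether libraries with the same number share one. CLIP (crosslinking and immunoprecipitation) sequences the RNA fixed to a protein. The 12 CLIP libraries are represented by a pair of values per peak, computed by the authors over libraries. The log average combines both treatments, and the log ratio sets hippuristanol over untreated, both in log units of a base not given in the sources used here. No value per library was at hand, so no sample values, folds, errors between replicates or p-values are given, the depth is unknown, and the cell line was not checked against marker genes. A low log ratio from less ANKRD52 mRNA and one from less Ago2 per mRNA cannot be told apart here. How the log ratio was normalized, and whether by mRNA level, is not given in the sources used.

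The annotated 3′ UTR of ANKRD52 (GENCODE 29, matched through NM_173595) was 5335 nt long, after a 5′ UTR of 122 nt and a coding sequence of 3231 nt with the stop codon. It was searched for sites of microRNA families, shown here because seed pairing is how Ago2 finds a target. A site was the 7-nt match, on the transcript strand, to positions 2 to 8 of the microRNA. Mature microRNAs of the 5 families with a site follow, from RefSeq (GRCh38.p14), with the seed in capitals.
hsa-miR-17-5p: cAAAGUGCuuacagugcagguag
hsa-let-7a-5p: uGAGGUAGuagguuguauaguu
hsa-miR-18a-5p: uAAGGUGCaucuagugcagauag
hsa-miR-103a-3p: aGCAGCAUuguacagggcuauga
hsa-miR-10a-5p: uACCCUGUagauccgaauuugug

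Of 10 families searched that are common in human tissues and cell lines, these 5 had 8 sites in the ANKRD52 3′ UTR. They are printed 5′ to 3′ in the order of the transcript, with 8 nt on either side and the site in capitals, and named by family and by the first base of the site counted from 1 after the stop codon.
miR-17/20 at 77: catttaggGCACTTTaaaggaga
miR-17/20 at 753: ctaaccacGCACTTTaaccttgc
miR-10 at 1592: tacacagtACAGGGTctcccctg
miR-17/20 at 2707: agtaataaGCACTTTtgtgaaaa
let-7 at 3201: aggagggcCTACCTCcctctcca
miR-18 at 3344: ccacccgaGCACCTTcttactcc
let-7 at 3636: ttcatcccCTACCTCcccttccc
miR-103 at 4793: gacctgtgATGCTGCagacacca

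The miR-17/20 family, which comes from growth-promoting microRNA clusters and includes miR-17-5p, miR-20a-5p, miR-93-5p and miR-106b-5p, had 3 of the 8 sites. Its motif GCACTTT occurred in 20.2% of 18614 annotated 3′ UTRs, 1 per gene, and in 61.3% of the 1869 that were 4000 nt or longer. At least 3 copies, as in ANKRD52, were held by 12.9% of those long 3′ UTRs. The first 2 of the ANKRD52 copies are followed by an A, the base that extends a seed match opposite position 1 of the microRNA. let-7, a family of differentiated cells, had 2 sites, neither followed by an A. CTACCTC was found in 9.34% of all 3′ UTRs and 30.7% of the long ones, and 6.05% of the long ones held 2 or more.

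The remaining families with a site had 1 each, and of these sites only that of miR-103 was followed by an A. The miR-18 motif GCACCTT was in 28.5% of the long 3′ UTRs, the miR-103 motif ATGCTGC in 37.8% and the miR-10 motif ACAGGGT in 41.3%. Over all 3′ UTRs these shares were 8.57%, 12.1% and 11.9%. Families without a site in these letters were miR-15/16 (TGCTGCT, in 55.4% of long 3′ UTRs), miR-19 (TTTGCAC, 42.6%), miR-25/92 (GTGCAAT, 35.3%), miR-30 (TGTTTAC, 46.7%) and miR-21 (ATAAGCT, 29.7%). The motifs of miR-15/16 and miR-103 share 6 letters and can overlap, and the miR-19 motif ends in the GCAC with which those of miR-17/20 and miR-18 begin. Of the microRNAs of other tissues, miR-1 of muscle (ACATTCC, 37.4%) and miR-122 of liver (ACACTCC, 24.9%) had none, and miR-124 of neurons was not searched. Per kilobase (kb), the long 3′ UTRs held a median of 0.925 sites of the 10 families, and 222 of them (11.9%) held more than ANKRD52 with its 8. Its 3′ UTR was 55.8% GC, against a median of 42.9%. A match is a stretch of letters and no evidence of binding, and since hg19 sequence was not used, no site could be set under a peak.

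**Figure D1:**
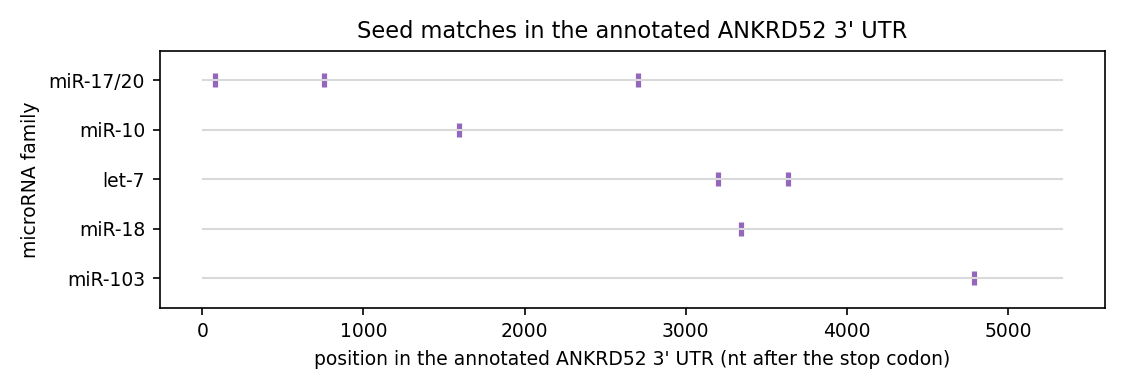
Position of the 8 seed matches in the annotated 3′ UTR of ANKRD52, in nt after the stop codon (x axis), by microRNA family (y axis). Each tick is a 7-nt match, each line the 3′ UTR of 5335 nt; the 3 miR-17/20 matches lie at 77, 753 and 2707 and the 2 let-7 matches at 3201 and 3636.

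Ago2 peaks covered a long stretch of the ANKRD52 3′ UTR. From the first to the last of the 17 peaks the span was 4415 nt, equal to 82.8% of the annotated length, and the peaks together covered 929 nt, or 17.4%. Peaks were numbered 1 to 19 from 5′ to 3′ along the mRNA, that is, from high to low coordinates. Their lengths ran from 28 to 121 nt with a median of 52 nt, against a median of 40 nt over the 4718 peaks of the table with distinct values, and 15 of the 19 were longer than that median.

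Overlap was limited to 3 pairs. Peaks 1 and 2 in the coding sequence shared 25 nt, peaks 4 and 5 shared 6 nt, and peaks 14 and 15 shared 39 nt. Peaks 9 and 10 abutted without a gap, and the other 11 overlapped or touched no neighbour. Counting overlapping peaks as 1 site gave 16 sites, and joining peaks within 50, 100 or 200 nt gave 13, 11 and 8, so the number of sites depends on the distance allowed. At 100 nt the largest cluster held peaks 9 to 12 over 328 nt, followed by peaks 17 to 19 over 296 nt. The widest gaps between neighbouring 3′ UTR peaks were 934 nt, between peaks 13 and 14, and 609 nt, between peaks 5 and 6.

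The number of peaks placed ANKRD52 at rank 10 of 2213 genes. More peaks were listed for 9 genes and as many for 1, DDX3X, an RNA helicase, while 1463 genes had 1 peak. Genes above it were the nuclear RNAs MALAT1 with 126 peaks and NEAT1 with 65, BTG2 (an antiproliferative gene) with 29, the zinc finger gene MAZ with 24, NUCKS1 with 23, MIDN with 21, and DICER1, the enzyme that cuts microRNA precursors, and HNRNPA2B1 with 20 each. A further noncoding RNA is not reported here.

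Per length, ANKRD52 was not among the most densely bound of the genes with many peaks. It had 3.19 peaks per kb of annotated 3′ UTR, above the median of 0.889 over 1449 genes with a 3′ UTR peak, of which 242 had more per kb. Of the 21 genes with 10 or more 3′ UTR peaks, 15 had more per kb, up to 13.5 in MAZ and 12.9 in BTG2, whose 3′ UTRs are 1110 and 2164 nt long. Among long 3′ UTRs it stood high. Of 230 genes with a 3′ UTR of at least 4000 nt and a peak in it, 142 had 1 such peak, 2 had more peaks per kb than ANKRD52 (NUCKS1 with 3.48 and KLHL15 with 3.57), and none had a larger share of its 3′ UTR under peaks. Next by share were NUCKS1 with 15.3% and BCL2L11, a proapoptotic gene, with 15.1%. These ranks rest on the number of peaks that chose the gene and on lengths of a later annotation.

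**Figure D2:**
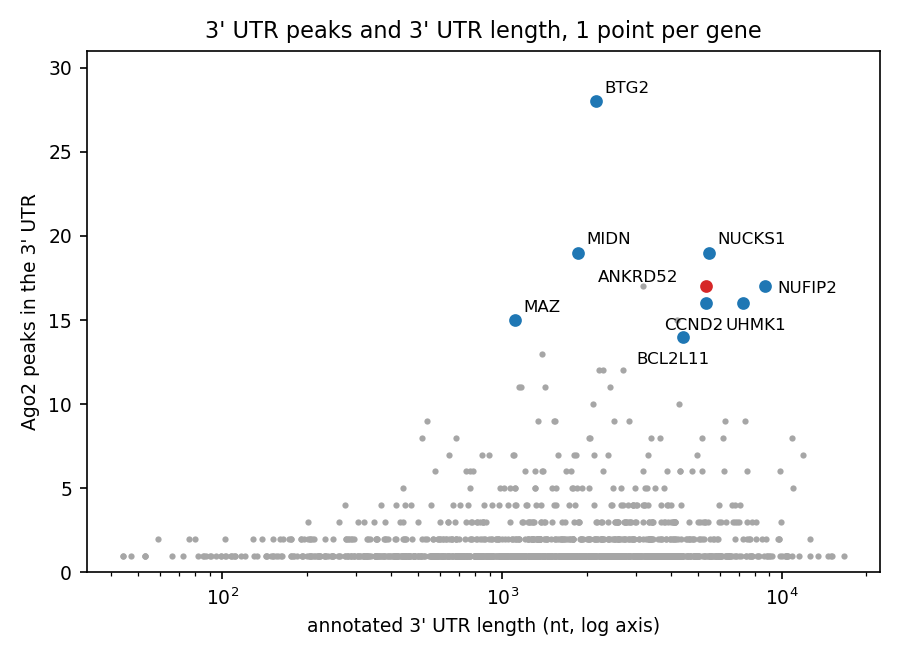
Number of Ago2 peaks in the 3′ UTR (y axis) against annotated 3′ UTR length in nt (x axis, log scale), 1 point per gene, with ANKRD52 in red and other named genes in blue. ANKRD52, with 17 peaks in 5335 nt, lies near NUCKS1 and CCND2, while BTG2 and MAZ have 28 and 15 peaks in shorter 3′ UTRs.

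By log average, ANKRD52 stood at a middle level of the table. Since the normalization of the log average is not given, it is not read here as a level of binding. The log averages ran from −7.19 to −5.12 with a median of −6.34, against −6.76 for all peaks and −6.46 for all 3′ UTR peaks, and 16 of the 19 lay above the median of all peaks. Their SD was 0.449, and 1.98 over all peaks. Of the 43 genes that had at least 10 peaks, 17 showed a smaller SD of the log average, so a spread this narrow was common among such genes. Over the 17 peaks of the 3′ UTR the log average tended to be higher toward the 3′ end: against distance upstream it had a Pearson's r of −0.49 and a Spearman's rho of −0.44, and without peak 19 an r of −0.32 and a rho of −0.33. The highest value belonged to the 3′-most and longest peak, 121 nt long, a length that 11 peaks of the table reach.

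Log ratios were mostly below 0. The median was −0.30, with a range of −1.90 to 0.74, against a median of 0.15 over all peaks. Of the 19 peaks 15 lay below 0, where 40.9% of all peaks do, and 17 below the median of all peaks. Most were moderate: 11 lay between −0.5 and 0, as did 23.9% of all peaks. Below −0.5 there were 4, where 17.0% of all peaks lie. Below −1 there was 1, with 4.22% of all peaks there, and 1 lay above 0.5, where 30.6% of all peaks lie. Since the log ratios chose the gene, nothing is read from these shares.

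In coding sequence, the overlapping pair was close in both values. Peak 1 (chr12:56641325-56641374) showed a log average of −6.30, with its log ratio at −0.24. For peak 2 (chr12:56641322-56641349) the values were −6.34 and −0.33. Both log ratios lie near the median of the gene, below 0.20, the median of all CDS peaks. Since the intervals of this pair share 25 nt, their values are not independent measurements.

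The 5′ part of the 3′ UTR peaks began with 3 peaks near or below 0. Peak 3 (chr12:56636889-56636927) showed a log average of −6.53, with its log ratio at −0.42. Peak 4 (chr12:56636575-56636645) had −6.10 and −0.08. Overlapping it by 6 nt, peak 5 (chr12:56636516-56636580) had −6.36 and 0.02, so this pair stood at about 0.

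The middle of the 3′ UTR held the lowest log averages and a run of low log ratios. After 609 nt without a peak, peak 6 (chr12:56635852-56635906) stood at −6.17 in log average and at 0.15 in log ratio. Downstream by 130 nt, peak 7 (chr12:56635660-56635721) had −7.19 and −0.91, the lowest log average of the gene and its second lowest log ratio. Peak 8 (chr12:56635499-56635537) had −6.58 and −0.50. Of these 3, peak 6 lay at the median of all peaks and the others well under it.

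Next came the largest cluster, in which all 4 log ratios were below 0. Peak 9 (chr12:56635209-56635245) showed a log average of −6.89, with its log ratio at −0.33. The abutting peak 10 (chr12:56635163-56635208) had −6.62 and −0.69. The log ratios alternated within this cluster: peak 11 (chr12:56635040-56635098) was higher, at −6.16 and −0.13. Peak 12 (chr12:56634918-56634958) was lower again, at −6.98 and −0.75. Peak 13 (chr12:56634682-56634736), 181 nt further on, had −6.47 and −0.01.

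The 3′ part held the lowest and the highest log ratio of the gene and its highest log average. The overlapping peaks 14 (chr12:56633660-56633747) and 15 (chr12:56633647-56633698) had log averages of −5.88 and −6.08 and log ratios of −0.41 and −0.25. Peak 16 (chr12:56633259-56633302) followed after 344 nt, at −6.51 in log average and −1.90 in log ratio. It stands alone, with 450 nt to the next peak, and its log ratio is 0.99 below the next lowest of the gene. None of the 2894 3′ UTR peaks with distinct values was lower, and 3 peaks of the whole table were. Its log average is close to the median of the gene, and it is 44 nt long, so neither value sets it apart.

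The 3 last peaks lie within 296 nt and differ widely. Peak 17 (chr12:56632753-56632808) showed a log average of −6.22, with its log ratio at 0.04. Peak 18 (chr12:56632669-56632712) had −6.07 and 0.74, the highest log ratio of the gene, 0.59 above the next. Peak 19 (chr12:56632513-56632633) had −5.12 and −0.30. The highest log ratio thus lies 35 nt from the peak with the highest log average, whose own log ratio equals the median of the gene.

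**Figure D3:**
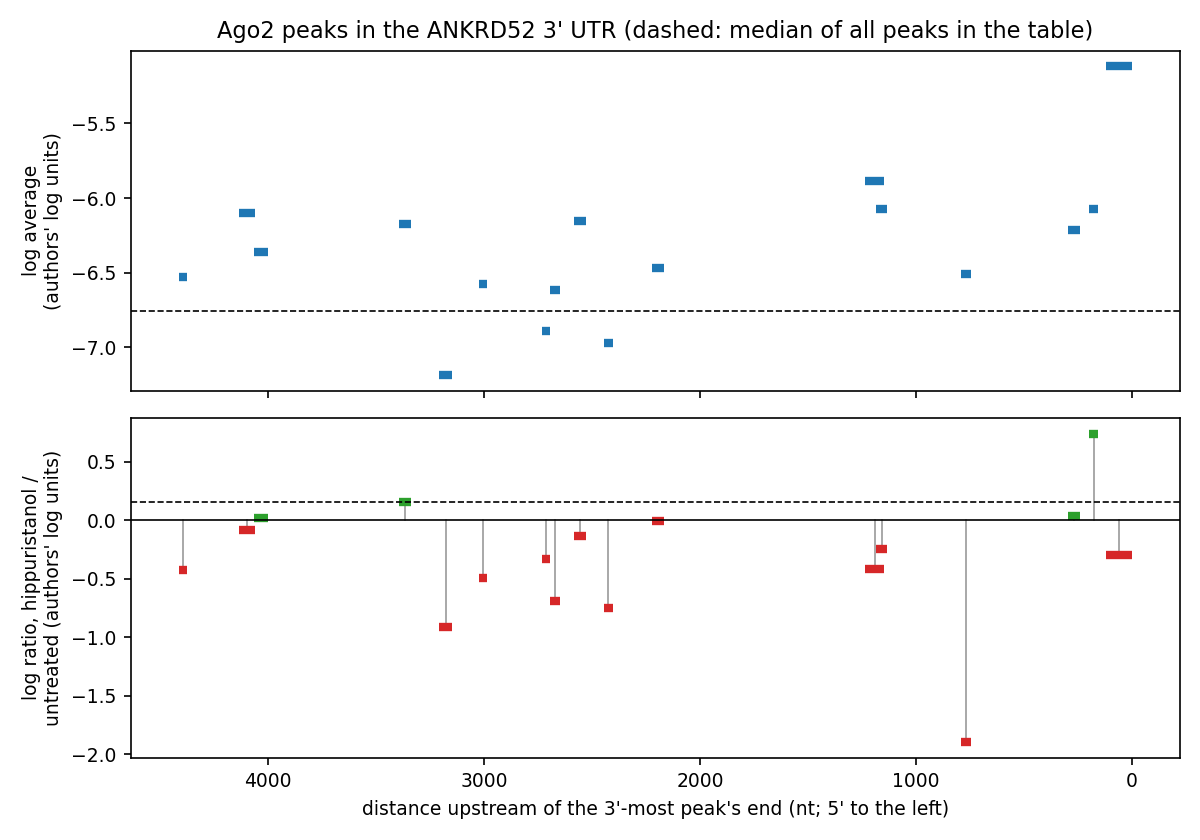
Log average (top) and log ratio of hippuristanol over untreated (bottom), in the authors' log units, for the 17 peaks in the ANKRD52 3′ UTR, by distance in nt upstream of the end of the 3′-most peak, 5′ to the left. Each thick bar spans a peak, red below and green above 0 in the lower panel, and dashed lines mark the median of all peaks; peak 16 at −1.90 and peak 18 at 0.74 stand apart.

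Peaks that share bases had similar log ratios, and peaks a short way apart often did not. The 3 overlapping pairs differed by 0.08, 0.10 and 0.16, where the median difference over 505 overlapping neighbour pairs of other genes was 0.35. The abutting pair differed by 0.36. The 4 pairs separated by 35 to 81 nt differed by 0.56 to 1.04, around a median of 0.66, against 0.59 over 675 such pairs of other genes with up to 100 nt between them. The low and high peaks of ANKRD52 are thus interleaved over short distances. All 13 separated neighbour pairs of the 3′ UTR, these 4 included, lay 35 to 934 nt apart and had a median difference of 0.62. The smallest of their differences, 0.13, was between peaks 5 and 6, which lie 609 nt apart, and the largest was 1.94. Over the 17 peaks of the 3′ UTR, distance along the mRNA and log ratio had a Pearson's r of −0.01 and a Spearman's rho of −0.09, a description over points that share the gene and the libraries.

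Peaks of the gene with higher log averages tended to have the higher log ratios. Over the 19 peaks, log average and log ratio had a Spearman's rho of 0.60 and a Pearson's r of 0.39, and without peak 16 a rho of 0.57 and an r of 0.47. Within each of the 42 other genes with at least 10 peaks, rho ran from −0.58 to 0.50 with a median of 0.05, and was above 0 in 22. Of the 9 peaks with the highest log averages 6 had log ratios below 0, with a median of −0.13, and of the 9 with the lowest 8 did, with a median of −0.50. These are descriptions over points that share libraries and, for 3 pairs, bases. Length and log average had an r of 0.71 and a rho of 0.53. Without peak 19 these were 0.42 and 0.45, so the r leans on the longest peak more than the rho does. Over the peaks of all other genes pooled, r was −0.08 and rho −0.09. That pool mixes differences between genes with those within them. The relation within each other gene was not computed, so whether ANKRD52 differs from them is not known.

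**Figure D4:**
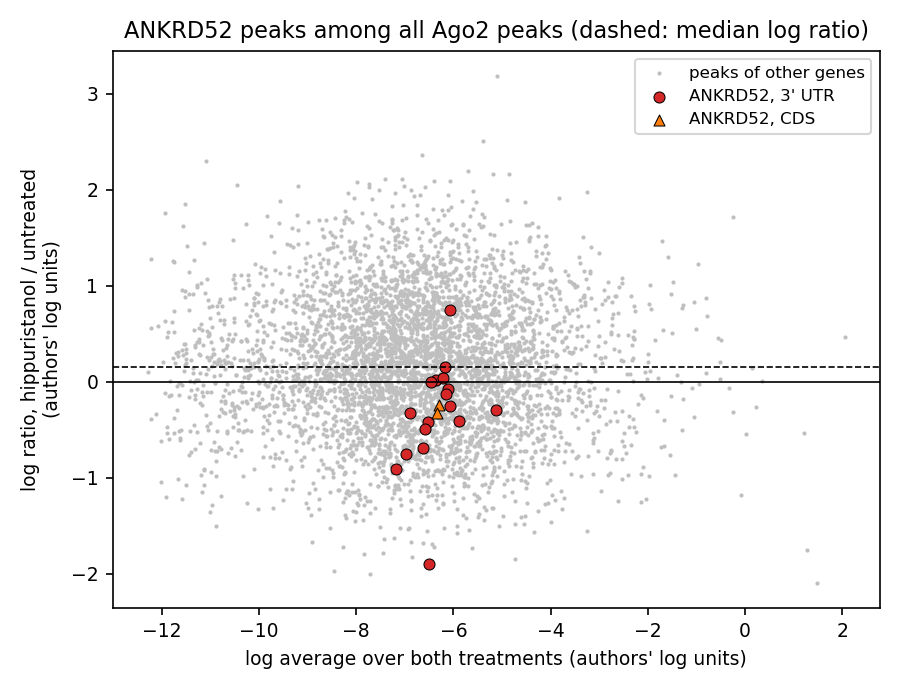
Log ratio of hippuristanol over untreated (y axis) against log average over both treatments (x axis), in the authors' log units, for each peak with distinct values; grey points are peaks of other genes, red circles the 3′ UTR peaks of ANKRD52 and orange triangles its CDS peaks. The ANKRD52 peaks sit between −7.19 and −5.12 on the x axis, and 17 of 19 lie below the dashed median of all peaks.

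A median log ratio below 0 was found in 14 of the 43 genes that had at least 10 peaks, and in 39.5% of all genes. ANKRD52, chosen by its low log ratios, came next to the bottom, after BCL2L11 at −0.42 over 14 peaks. At the other end was PPP1CC at 0.90. From 5 peaks on, 13 of 160 genes were lower than ANKRD52 by their median. The 1949 peaks of other genes within the range of its log averages had a median of 0.16, with 40.8% below 0. The SD of its log ratios was 0.527, against a median SD of 0.634 over the 43 genes, of which 8 had a smaller one.

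Genes whose log ratios were distributed most like those of ANKRD52, by the largest gap between cumulative distributions (the Kolmogorov-Smirnov distance D, used with no p, over genes with 10 or more peaks), were MIDN, MYLIP and MAZ. MIDN, which encodes the nuclear protein midnolin, had D of 0.155, a median of −0.17 and 16 of 21 peaks below 0. MYLIP, a ubiquitin ligase of the LDL receptor, had D of 0.170 and a median of −0.19 over 13 peaks. MAZ followed with D of 0.228 and a median of −0.22. Their log averages differ: medians were −4.43 for MIDN, −4.79 for MYLIP and −7.58 for MAZ, against −6.34 for ANKRD52. Genes with about as many peaks went both ways, DICER1 at 0.56 and DDX3X at 0.40 on the one side and MIDN and MAZ on the other.

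The phosphatase itself was sparsely represented. Among the other symbols searched for protein phosphatase 6, its scaffolds and its regulators, only PPP6R1, a regulatory subunit, had a peak, at −6.10 in log average and −0.37 in log ratio. PPP6C, the catalytic subunit, and the scaffolds ANKRD28 and ANKRD44 had none. The table lists called peaks only, so a gene without one is not shown to be unbound. ANKRD52 was chosen by its low log ratios, so beside it this list rests on the single peak of PPP6R1. That peak lay below 0, as did the medians of 39.5% of all genes.

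For the kinases that phosphorylate Ago2, 2 of the 4 symbols reported here had peaks. Of these, 1 had a median below 0, as did 39.5% of all genes. CSNK1A1, the kinase that ANKRD52 opposes, had a single peak, at −7.16 in log average and −0.83 in log ratio. MAPKAPK2, a kinase of the p38 pathway, had log ratios of −0.48 and 0.61. Its 2 peaks thus fell on either side of 0.

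Among the Argonautes and their GW182 partners, 5 genes had peaks, 4 with medians above 0 and 1 below, where 39.5% of all genes lie. The 11 symbols searched name each Argonaute by both an EIF2C and an AGO symbol, so they stand for fewer genes. Only EIF2C3 and EIF2C4 had no peak. EIF2C2, which encodes Ago2, had 1 CDS peak at 0.04. EIF2C1, which encodes Ago1, had 5 peaks with a median of 0.74. Of the GW182 proteins, which recruit deadenylases, TNRC6A had a median of 0.39 over 13 peaks, TNRC6B 0.96 over 3 and TNRC6C −0.45 over 4. TNRC6C thus lay on the side of ANKRD52 and the others above it.

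The catalytic subunits of related phosphatases had 3 of 10 symbols with peaks. PPP1CC, of protein phosphatase 1, had a median of 0.90 over 12 peaks, of which 2 lay below 0. PPP4C had 1 peak at 1.01 and PPP2CB 1 at −0.11. The median over the genes of a list was −0.33 for the 2 of protein phosphatase 6 and −0.38 for the 2 Ago2 kinases. It was 0.39 for Argonautes and GW182 proteins and 0.90 for these catalytic subunits, against 0.17 over all genes. The value for protein phosphatase 6 includes ANKRD52, which was chosen by its low log ratios. With 2 to 5 genes each, several with a single peak, these medians describe the genes named and no pathway.

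**Figure D5:**
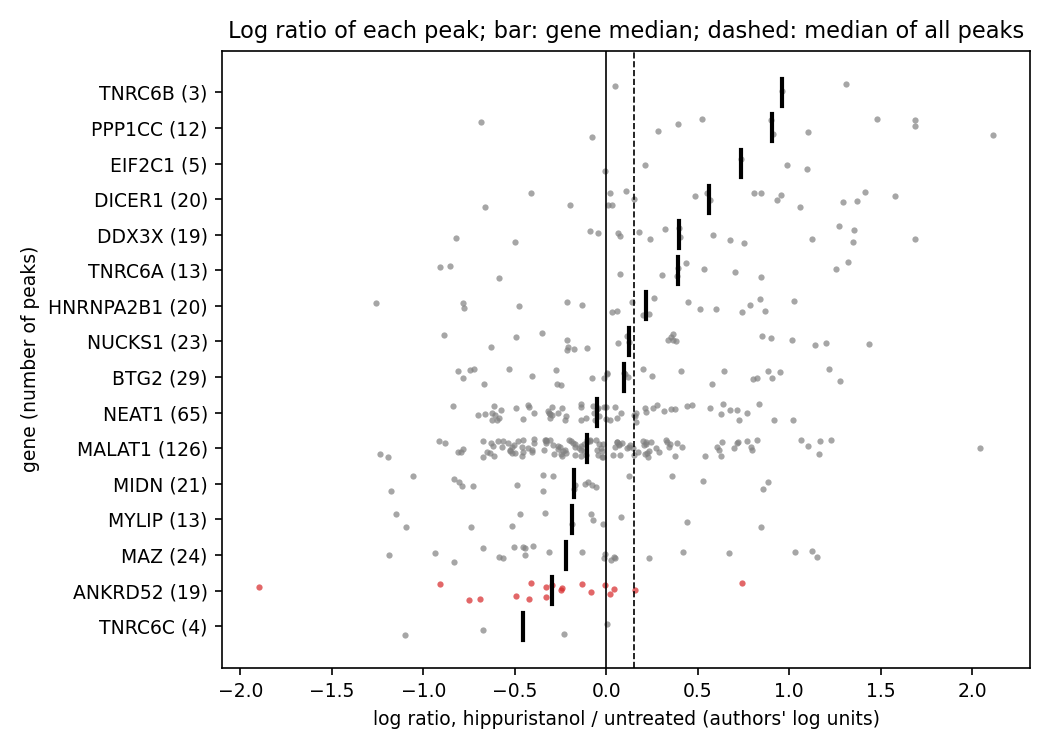
Log ratio of hippuristanol over untreated for each peak (points), in the authors' log units, by gene with its number of peaks in brackets; black bars are gene medians, the dashed line is the median of all peaks and vertical scatter within a gene has no meaning. ANKRD52 (red) has 15 of 19 points below 0, and PPP1CC, EIF2C1 and DICER1 have medians of 0.90, 0.74 and 0.56.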

How the data were processed

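Per the labels, 16 libraries were made from 293S cells, 12 by CLIP and 4 by RNA-seq, the latter not analysed here. The authors deposited 1 table of peaks with 2 scores each, a normalized log average and a normalized log ratio, per the file header. How libraries were pooled and normalized, how peaks were called and filtered, and which log base was taken were not given in the sources used here. Tools named without roles in the submitters' processing notes are Bowtie 0.12.8, TopHat and DESeq, with hg19 as the build.

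Rows with the same gene and identical values were counted once (50 rows). Coordinates are as deposited, and whether they count from 0 or 1 is not stated. In the table, 155 neighbouring peaks start 1 nt after the end of the last and 34 on it, so both ends were counted in lengths. Peaks were grouped where they share at least 1 nt. Of 1537 genes with 3′ UTR peaks, 1467 were matched by RefSeq identifier to GENCODE 29, of which 18 with more nt under peaks than in the annotated 3′ UTR were left out. Sites were searched in 1 transcript per gene, that with the longest 3′ UTR. Functions were checked on simulated data (Python 3.11.15, NumPy 2.4.6, pandas 2.3.3, SciPy 1.17.1).

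ANKRD52 and the gene lists were chosen with earlier results of these data known. Named were all ANKRD52 peaks, genes with as many or more peaks, the 3 genes most like it and list members with a peak, except genes not reported here. Further genes in the density and rank comparisons (BCL2L11, KLHL15, CCND2, NUFIP2, UHMK1) were named after their values were seen.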

Additional observations from a re-analysis of the deposited data

How the results depend on the processing

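Under 20 of the 21 alternatives tried, medians kept their sign and stayed within their 95% order-statistic intervals over peaks (−0.50 to −0.01 for the log ratio). Counts under these 20 stayed within 1.5 times of those reported. Some alternatives had little or no room to differ. All ANKRD52 peaks have distinct values, so counting every listed peak changed neither their number nor their median. Subtracting the median of all peaks is a constant shift, and a higher threshold can only raise the count below it. The median log ratio of ANKRD52 was −0.31 with 1 value per overlap, −0.33 over peaks without overlap, −0.25 over the 16 peaks at or above the median log average and −0.27 without peak 16. The mean was −0.33, and −0.24 without peak 16, the latter and the median without peak 19 (−0.29) added after seeing the data. Relative to the median of all peaks the gene stood at −0.45. With the threshold at that median, 17 peaks in place of 15 lay below it, and the rank by peaks stayed at 10. Sharing of at least 50% of the shorter peak gave 17 sites in place of 16, and joining peaks within 200 nt, added after seeing the data, gave 8. No paired analysis was possible because the table holds values pooled over libraries. For the same reason no replicate could be left out, and the interval covers the spread over peaks, some of which overlap, and not that between replicates.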
